A study of Mus musculus with 79 samples.

Results

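The genes that encode the proteins of the cytosolic ribosome were followed across the quadriceps arrays of the BXD family, a set of inbred mouse strains bred from C57BL/6J and DBA/2J. They were taken by symbol as the Rpl and Rps genes with a number, plus Rplp0, Rplp1, Rplp2 and Rpsa, with the Rps6k kinases left out. This gave 80 genes of the 22335 symbols on the array, 31 of the small subunit and 49 of the large subunit. They were measured by 448 probesets, and where a gene had several, the one with the highest mean was used (below, the brightest probeset). Male mice were given a chow diet (CD) or, from 8 weeks of age, a high fat diet (HFD), and quadriceps was taken at 29 weeks after an overnight fast. Each of the 79 arrays held RNA pooled evenly from about 5 mice of a strain and diet, 42 on CD and 37 on HFD. They covered 40 BXD strains and both parental strains, C57BL/6J and DBA/2J, and 37 of the 42 strains had an array on each diet. A strain therefore had 1 array per diet, and the spread between animals was not measured: p-values rest on the spread between pools.

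A ribosome is built from ribosomal RNAs and a full set of ribosomal proteins, so the proteins are needed in matched amounts. In mammals their messages usually start with a C followed by a run of pyrimidines, the TOP motif, and mTOR signalling controls how strongly these messages are translated. The genome carries many processed pseudogenes of these genes, intronless copies that can be almost identical to the parent. A few members have a paralog of narrower use, such as Rpl3l in striated muscle and Rpl10l and Rpl39l in testis.

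Promoter sequences from RefSeq (GRCm38.p6, 250 bases before the start of a transcript to 50 after it) were found for 60 of the 80 genes, with 72 promoters in all. The windows below run from 70 bases before the start to the twentieth transcribed base, 5′ to 3′, and capitals mark a run of at least 8 pyrimidines that touches the 10 bases on either side of the start. Rpl24, Rps25 and Rps12 are shown because they were among the 5 genes whose values followed the rest of the family most closely, and Rpl18 and Rpl28 because they did so least. Rpl27 and Rpl14 had the largest diet differences, and Rplp0 and Rps2 the clearest strain differences.
Rpl24 (chr16:55966205-55966294, plus strand): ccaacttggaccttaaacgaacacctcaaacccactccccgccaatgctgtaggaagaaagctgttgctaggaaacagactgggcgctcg
Rps25 (chr9:44407644-44407733, plus strand): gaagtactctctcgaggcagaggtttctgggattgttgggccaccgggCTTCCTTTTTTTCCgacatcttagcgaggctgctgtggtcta
Rps12 (chr10:23787190-23787279, minus strand): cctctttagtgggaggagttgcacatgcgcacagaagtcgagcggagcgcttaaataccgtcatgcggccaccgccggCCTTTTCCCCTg
Rpl18 (chr7:45718001-45718090, plus strand): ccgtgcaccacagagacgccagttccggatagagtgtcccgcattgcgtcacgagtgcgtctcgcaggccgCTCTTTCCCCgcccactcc
Rpl28 (chr7:4792895-4792984, plus strand): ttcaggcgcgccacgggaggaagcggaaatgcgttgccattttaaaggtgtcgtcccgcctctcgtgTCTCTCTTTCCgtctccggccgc
Rpl27 (chr11:101442175-101442264, plus strand): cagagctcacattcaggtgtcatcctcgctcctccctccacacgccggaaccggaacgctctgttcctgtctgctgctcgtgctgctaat
Rpl14 (chr9:120571447-120571536, plus strand): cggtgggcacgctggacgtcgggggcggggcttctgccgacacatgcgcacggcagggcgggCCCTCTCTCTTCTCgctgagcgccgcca
Rplp0 (chr5:115559397-115559486, plus strand): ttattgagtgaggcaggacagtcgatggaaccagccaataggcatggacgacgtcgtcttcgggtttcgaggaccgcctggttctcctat
Rps2 (chr17:24719993-24720082, plus strand): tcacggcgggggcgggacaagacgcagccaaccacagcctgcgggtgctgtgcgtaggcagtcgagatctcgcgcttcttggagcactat
Such a run was present in 29 of the 72 promoters (40.3%), compared with 14.02% of the 32851 promoters of all genes. The run need not begin with a C at the annotated start, and shorter runs were not counted. The annotated first base is A in Rps25 and Rps12 and G in Rpl18. The run therefore does not sort genes by the TOP motif. CCGGAAG, the core of an ETS family site, was present on either strand in 36.1% of the members' promoters and 8.86% of all. GGGCGG, the core of an SP1 site, was present in 58.3% and 35.7%, AAGATGGC, a YY1-type motif, in 9.72% and 2.75%, CACGTG, an E-box, in 11.1% and 7.15%, and TATAAA in 8.33% and 13.6%. These are matches of letters in a 300-base window and no binding was measured.

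The values were deposited as a score per probeset scaled so that the 35556 probesets of any array average 8.0 with an SD of 2.0. The score behaves like a log value, but its log base was not given in the sources used here, so differences are in score units. Of the 80 genes, 67 lay in the brightest 10% of probesets. Rpl21, Rps6, Rpl39 and Rps2 were among the 5 with the highest means, from 13.96 to 14.10. Rpl39l had the lowest mean, 6.07, and was the only member below the median of all probesets. Next came Rpl10l at 8.38, Rpl14 at 8.51, Rps21 at 9.55 and Rpl22 at 9.76. Probes differ in how they hybridise, so this order is of signals and not of transcript amounts. Markers of skeletal muscle such as Acta1 and Ckm had array means from 14.2 to 14.6 and 3 testis markers from 6.79 to 7.42.

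Which genomic copy a probeset reads matters for these genes. Of the 448 probesets, 362 were numbered among the neighbours of some other genomic place, with the ribosomal gene's symbol but not its location, and 86 stood among the gene's own neighbours. The placement was read from the numbering of the probesets, which follows the genome: of 18021 singly named genes, 99.3% stood beside their own neighbours by the same criterion. The brightest probeset lay elsewhere for 52 members and in the gene's own place for 28. For those 52 the brightest probeset in the own place was measured too. Its strain means correlated with those of the brightest probeset with a median r of 0.942, and at 0.8 or more for 42 genes, but the r ranged from 0.030 to 0.998. Copies that are nearly identical can hybridise alike, and which of them gave a signal was not tested. Calls that were made with the brightest probeset and not in the gene's own place are named with the results.

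The arrays labelled BXD63 on CD and HFD went against the other strains for the gene with the clearest diet difference, as given for Rpl27, as they would if the diets of both were exchanged, which was not tested. The diet, strain and parent counts and the covariation are given with and without them. Without them the counts in the lists of cell markers and other translation genes were unchanged, except for 1 more assembly gene in each direction. Own-place probesets then gave 13 of the 80 members higher and 7 lower in HFD in place of 12 and 6. Of all probesets 19.8% were higher and 19.8% lower without BXD63, and 18.9% and 19.3% with it. In the titles the arrays fall into 2 batches, with 18 CD and 17 HFD arrays in the first and 24 CD and 20 HFD arrays in the second, and batch was a term in the fits.

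The first comparison asked whether HFD changed the ribosomal protein genes. The family did not move as a block. The median difference (HFD minus CD) was 0.0081 units, and the single differences ran from -0.14 to 0.24. With limma, 9 genes were higher and 10 lower in HFD at an adjusted p below 0.05, which is 23.8% of the 80. Over all probesets 38.1% were called, 18.9% higher and 19.3% lower, and 24.7% of the brightest 10%. The members' share was thus below that of all probesets and near that of the other bright ones. Their median absolute difference was 0.036 units, compared with 0.076 over all probesets and 0.045 in the brightest 10%. The small subunit had 2 higher and 4 lower, and the large subunit 7 higher and 6 lower.

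Rpl27, a large subunit protein, rose in HFD. It ranged on CD from 11.22 through a median of 11.37 to 11.63 and on HFD from 11.40 through 11.63 to 11.78, with the HFD array above the CD array in 36 of 37 strains. The difference was 0.236 ± 0.020 (SE, limma, adjusted p = 1.0e-16). The exception was BXD63, with 11.63 on CD, the highest CD value, and 11.40 on HFD, the lowest HFD value. Over all arrays the groups overlapped, with 17 of 37 HFD arrays not above the highest CD array. Without BXD63 the highest CD array was at 11.52, with 3 of 36 HFD arrays not above it, and the lowest HFD array was at 11.41, with 15 of 41 CD arrays not below it. Within batches the difference was 0.223 and 0.247, and without BXD63 it was 0.248. This probeset lies in the gene's own place. Of the other Rpl27 probesets, which lie elsewhere, 2 with identical values differed by 0.066 (limma, adjusted p = 0.0047) and the last by 0.0085 (adjusted p = 0.81).

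Rpl14, also of the large subunit and represented by a single probeset in its own place, rose as well. Its CD arrays lay between 7.87 and 8.76 with a median of 8.49, and its HFD arrays between 8.30 and 8.92 with a median of 8.61. The groups overlapped widely, with HFD higher in 29 of 37 strains. The difference was 0.196 ± 0.041 (SE, limma, adjusted p = 6.0e-05), and 0.179 and 0.209 within the batches.

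**Figure D1:**
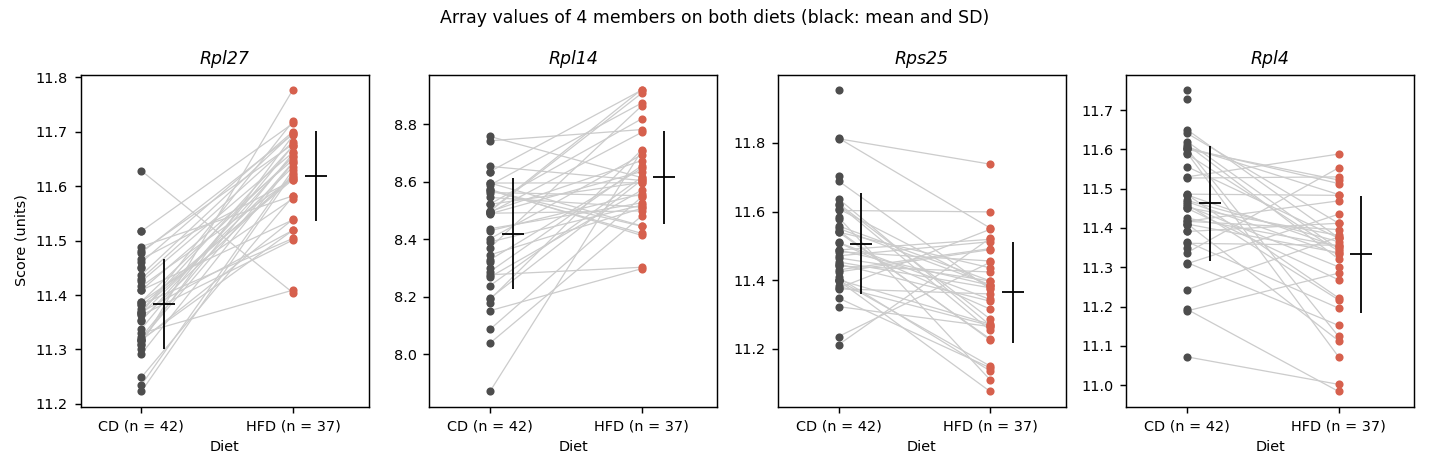
Score (units, vertical axis) of Rpl27, Rpl14, Rps25 and Rpl4 on each array, by diet (42 CD and 37 HFD arrays). Grey lines join the arrays of a strain and black marks give the mean and SD. Rpl27 rises in every paired strain but BXD63, and the ranges of both diets overlap for each of the 4 genes.

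The other genes that rose did so by less. Rpl39l went from a median of 6.02 on CD (5.78 to 6.29) to 6.14 on HFD (5.75 to 6.52), a difference of 0.105 ± 0.029 (SE, limma, adjusted p = 0.0029). It is a dim probeset, and it was not called within either batch, with differences of 0.129 and 0.085. Its ubiquitous paralog Rpl39 rose by 0.072 ± 0.025 (SE, adjusted p = 0.016). Rpl31 went from a median of 11.87 to 11.97, with a difference of 0.090 ± 0.022 (SE, adjusted p = 6.4e-04) and HFD higher in 33 strains. Rpl21 went from 14.08 to 14.16, with a difference of 0.081 ± 0.019 (SE, adjusted p = 4.6e-04) and HFD higher in 31 strains. Both were read by a probeset outside the gene's place. In the own place Rpl31 differed by -0.0079 (adjusted p = 0.80) and Rpl21 by 0.040 (adjusted p = 0.12), so neither call was made there. Rps10, Rpl29 and Rps15 completed the 9, with differences from 0.052 to 0.074. Rpl29 was not called in its own place (0.032, adjusted p = 0.31).

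Rps25, of the small subunit, had the largest fall. CD arrays ran from 11.21 through a median of 11.49 to 11.96 and HFD arrays from 11.08 through 11.38 to 11.74. HFD was higher in only 7 of 37 strains, but the ranges overlapped, with 5 of 37 HFD arrays below every CD array and 3 of 42 CD arrays above every HFD array. The difference was -0.142 ± 0.034 (SE, limma, adjusted p = 4.3e-04). The own-place probeset gave -0.055 (adjusted p = 0.20). Rpl4 fell from a median of 11.46 (11.07 to 11.75) to 11.35 (10.98 to 11.59), a difference of -0.129 ± 0.033 (SE, adjusted p = 0.0013), with HFD higher in 8 strains. Rpl22, a large subunit protein whose paralog is Rpl22l1, fell from a median of 9.79 to 9.70, a difference of -0.114 ± 0.031 (SE, adjusted p = 0.0018). Rpl4 and Rpl22 each had a single probeset, in the own place.

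Rps27a, which is made as a fusion to ubiquitin, and Rps19, the gene most often mutated in Diamond-Blackfan anaemia, were next. Rps27a fell from a median of 9.89 to 9.77 (difference -0.111 ± 0.033, SE, limma, adjusted p = 0.0043), but in the own place the difference was -0.0073 (adjusted p = 0.87), and another of its probesets was higher in HFD by 0.288 (adjusted p = 5.7e-08). Rps19 fell from 10.38 to 10.31 (difference -0.108 ± 0.040, SE, adjusted p = 0.025), a call lost without the parental strains (adjusted p = 0.057), with array medians aligned (adjusted p = 0.060) and with the olfactory receptor mean, which stands for background signal, as a covariate (adjusted p = 0.38). Rps7, Rpl24, Rpl37, Rpl3l and Rpl13 made up the 10, with differences from -0.101 to -0.051. In their own places Rps7 (-0.038, adjusted p = 0.36), Rpl37 (-0.014, adjusted p = 0.72) and Rpl13 (-0.041, adjusted p = 0.069) were not called. Rpl3l fell by 0.068 ± 0.021 (SE, adjusted p = 0.0088), a call lost with array medians aligned (adjusted p = 0.070), while its ubiquitous paralog Rpl3 differed by -0.025 ± 0.043 (SE, adjusted p = 0.68).

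**Figure D2:**
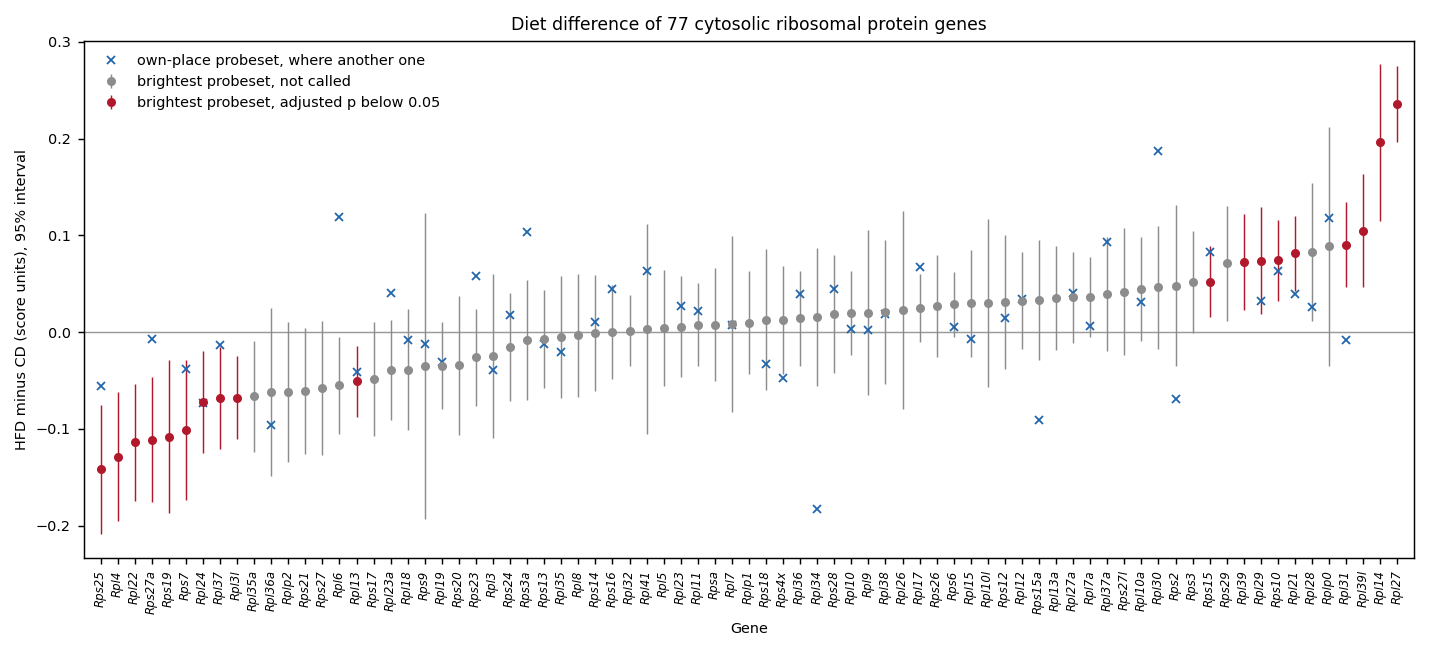
Difference in score between HFD and CD (vertical axis, score units, with 95% intervals) of 77 of the 80 genes (horizontal axis, in order of the difference). Red points passed limma's adjusted p of 0.05, grey points did not, and blue crosses give the own-place probeset where that is another one. Most genes lie within 0.1 units of 0, and several crosses lie far from their point, Rpl34 and Rpl30 among them.

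The counts in each direction depended on scaling and on the probeset. With array medians aligned, 14 members were higher and 4 lower (17.5% and 5.0%), where 23.1% of all probesets were higher and 16.2% lower and the median of all probesets moved from -0.00066 to 0.016 units. Of the 34 members reported by name under the naming rule, 0 changed sign there, and 6 of the 10 lower calls were lost (Rps19, Rps7, Rpl24, Rpl37, Rpl3l and Rpl13, adjusted p from 0.060 to 0.18). After quantile normalization 6 were higher and 13 lower (7.5% and 16.2%), beside 18.3% and 19.1% of all probesets, and the calls of Rps15, Rpl39 and Rpl29 were lost (adjusted p from 0.055 to 0.16). Without BXD63 there were 11 in each direction (27.5% in all, beside 39.6% of all probesets), with all 19 calls kept. In batch 1 alone, limma called 2 higher and 0 lower, where 6 and 2 had an unadjusted p below 0.05, and in batch 2 alone 6 and 4. The members' shares there were 2.5% and 12.5%, beside 12.6% and 24.4% of all probesets. With own-place probesets 12 were higher and 6 lower, 11 of the 19 calls were kept and 7 genes were called there alone. Among these, chosen after their values were seen, Rpl30 was higher in HFD by 0.187 ± 0.030 (SE, limma, adjusted p = 6.1e-07) where its brightest probeset gave 0.046 (the own-place probeset, with a mean of 8.34, was the dimmest of its 11, and the others lay from 12.32 to 12.81), Rpl6 was higher by 0.119 ± 0.025 (SE, adjusted p = 8.3e-05) where its brightest gave -0.055, and Rpl34 differed by -0.183 ± 0.041 (SE, adjusted p = 2.1e-04) where its brightest gave 0.016. Counted by probeset, 60 of the 448 were higher and 21 lower (13.4% and 4.69%, beside 18.9% and 19.3% of all probesets), and 5 genes had probesets called in both directions.

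The diet fit was also paired. With strain as a block over the 37 paired strains, 16 members were higher and 10 lower (32.5% in all, beside 40.6% of all probesets), and all 19 genes kept their call. Without the block the same arrays gave 8 higher and 7 lower (18.8%, beside 35.9%), with 15 of the 19 calls kept. On these arrays the block thus added 11 calls, 8 higher and 3 lower, of which 4 (Rpl29, Rps7, Rpl37 and Rpl13) had been called over all 79 arrays. The other 7 were all higher in HFD. Rplp0, of the ribosomal stalk, was higher on HFD in 31 of 37 strains, and its difference was 0.089 ± 0.062 (SE, limma, adjusted p = 0.27) over all arrays and 0.080 ± 0.019 (adjusted p = 8.4e-04) with the block. Its own-place probeset gave 0.118 over all arrays (adjusted p = 0.13), with HFD higher in 28 strains. Rps2 was higher in 30 strains, with 0.048 ± 0.042 (SE, adjusted p = 0.38) over all arrays and 0.065 ± 0.017 (adjusted p = 0.0021) with the block, but its own-place probeset had the opposite sign (-0.069 over all arrays, adjusted p = 0.39), with HFD higher in 10 strains. These genes also had the clearest strain differences, given below. The others were Rpl10a, Rps3, Rpl28, Rpl27a and Rpl7a, with differences from 0.045 to 0.075 and adjusted p from 0.0073 to 0.048 with the block. All but Rps3 were read outside the gene's place. In the own place the differences over all arrays were 0.031 for Rpl10a, 0.026 for Rpl28, 0.040 for Rpl27a and 0.0068 for Rpl7a, with adjusted p from 0.19 to 0.82, and these probesets were not fitted with the block.

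Cell markers were read beside the family, and 38.1% of all probesets were called. Of 8 adipocyte markers 6 were higher in HFD and 1 lower, with array means of 9.27 to 10.8 on CD and 9.42 to 11.2 on HFD. Leptin rose by 1.58 ± 0.19 units (SE, limma, adjusted p = 5.0e-11). Of 7 macrophage markers 5 were higher and 0 lower, and of 4 endothelial markers 3 and 0, where Tek was the marker that was not called. Of 7 lymphocyte markers 1 was higher and 4 lower, of 3 testis markers 2 and 1, and of 5 red blood cell markers 1 and 0. Of 8 markers of skeletal muscle 0 were higher and 1, Tnni2, was lower, and 0 of 7 slow fibre and 0 of 5 fibroblast markers were called. The part of these markers in the differences of single ribosomal genes was not tested, and in bulk tissue fewer cells of a type and less RNA per cell cannot be told apart.

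The other translation genes also moved in both directions. Of 7 ribosomal proteins or their partners with another kind of symbol, 1 was higher and 2 lower. Rps19bp1, a nucleolar partner of Rps19, rose by 0.184 ± 0.027 (SE, limma, adjusted p = 6.1e-08), and Rpl22l1 fell by 0.137 ± 0.045 (SE, adjusted p = 0.011). Of 13 elongation factors and other TOP genes 2 were higher and 4 lower, led by Pabpc1, the poly(A) binding protein, at 0.139 ± 0.037 (SE, adjusted p = 0.0019) and Naca, a chaperone of nascent chains, at -0.152 ± 0.033 (SE, adjusted p = 1.2e-04). Of 34 initiation factors 4 were higher and 5 lower, with Eif5b at 0.131 ± 0.029 (SE, adjusted p = 1.4e-04) and Eif2b5, a subunit of the exchange factor for eIF2, at -0.117 ± 0.029 (SE, adjusted p = 6.4e-04).

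Of 40 ribosome assembly genes 2 were higher and 6 lower. Fibrillarin (Fbl), which methylates ribosomal RNA, fell by 0.184 ± 0.023 (SE, limma, adjusted p = 3.9e-10), and only 2 of 37 strains had the higher value on HFD. Utp15, which acts in early processing of the precursor RNA, rose by 0.118 ± 0.041 (SE, adjusted p = 0.017). In the mTOR pathway 1 gene of 19 was higher, Sesn3 at 0.113 ± 0.032 (SE, adjusted p = 0.0033), and 1 was lower, Tsc1 at -0.097 ± 0.025 (SE, adjusted p = 0.0011). These counts stand beside 18.9% of all probesets that were higher and 19.3% that were lower.

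The second comparison asked which members kept a strain difference across both diets. A limma fit with a coefficient per strain, next to diet and batch, was made over the 74 arrays of the 37 paired strains. The strain term was called for 29 of the 80 genes, or 36.2%. Of all probesets 13.6% were called, and 35.8% of the brightest 10%, so the share was that of bright probesets in general. Of the 29, Rpl29 and Rps7 were called between diets as well, both with a probeset outside the gene's place. In place neither was called between diets, and for strain Rps7 was (adjusted p = 0.045) and Rpl29 was not (adjusted p = 0.051). Without BXD63 the strain count was again 29.

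Rplp0, the stalk protein that anchors Rplp1 and Rplp2, differed most. Its strain means, over both diets, ran from 12.29 in BXD43 through a median of 12.86 to 13.39 in BXD65. C57BL/6J stood at 13.17 on CD and 13.28 on HFD and DBA/2J at 12.50 and 12.41, so the strains covered the space between and around the parents. The strain F was 22.9 (limma, adjusted p = 3.9e-14). Across strains CD and HFD values correlated with r = 0.920 and rho = 0.904 (37 strains, two-sided permutation p = 1e-05 for both, the smallest possible), with r = 0.906 without the 2 outermost strains. The permutation p-values here and below are unadjusted. The genes were picked by their strain F on the same arrays, and a large F already requires that both diets agree. These correlations therefore describe the strain difference and are no separate test of it. Within batches r was 0.906 and 0.967, and 0.842 for the strains split over batches. All 4 of its probesets were called, with F from 11.2 to 22.9. Of its partners Rplp1 was not called (F = 0.971, adjusted p = 0.68), and Rplp2 was (F = 2.73, adjusted p = 0.016).

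Rps2, a small subunit protein near the entry site of the message, followed. Strain means ran from 13.56 in BXD69 through 13.96 to 14.22 in BXD66, with F = 12.5 (limma, adjusted p = 3.2e-10). The diets correlated with r = 0.880 and rho = 0.901 (permutation p = 1e-05 for both), r = 0.858 without the outermost strains, and 0.825 and 0.949 within batches. Its 18 probesets were all called. The own-place probeset had F = 9.84 (adjusted p = 1.1e-08), and its strain means correlated at 0.868 with those of the brightest.

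Rps9 shows how the probeset can carry the result. Its brightest probeset, outside the gene's place, ran from 10.20 in BXD44 to 11.28 in BXD64 with F = 9.12 (limma, adjusted p = 3.0e-08) and r = 0.796 between diets (rho = 0.684, permutation p = 1e-05 for both), 0.755 without the outermost strains and 0.689 and 0.860 within batches. Its other probeset, in the gene's place, had F = 1.30 (adjusted p = 0.41) and r = 0.187 (permutation p = 0.27). The strain means of both correlated at 0.030. These probesets had means of 10.64 and 10.50. For Rpl12, F was 2.49 (adjusted p = 0.030) elsewhere and 1.07 (adjusted p = 0.59) in place, with r = 0.339 between them, but there the own-place probeset was dim, with a mean of 7.82 beside 13.55. Rpl19, with an adjusted p of 0.063 in place, also lost the call.

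Rpl34 and Rpl26, both large subunit proteins, were also among the 6 with the largest F. Rpl34 ran from 11.99 in BXD98 to 12.58 in BXD65 (F = 7.33; limma, adjusted p = 5.8e-07), with r = 0.795 between diets (rho = 0.820, permutation p = 1e-05 for both), 0.747 without the outermost strains and 0.714 and 0.931 within batches. It was called in place as well (F = 3.19, adjusted p = 0.0050). Rpl26, read in its own place, ran from 9.595 in BXD48 to 10.36 in BXD87 (F = 4.97, adjusted p = 7.0e-05), with r = 0.652 between diets (rho = 0.655, permutation p = 3e-05 and 4e-05), 0.651 without the outermost strains, 0.652 and 0.841 within batches and 0.422 for strains split over batches. DBA/2J was split between diets for Rpl26, at 10.12 on CD and 9.57 on HFD. The other 23 genes had F from 2.30 to 4.96, with Rps18, Rpl9, Rpl10a and Rpsa, also known as the laminin receptor, at the head. Of the paralog pairs, Rpl10 (F = 3.43) and Rpl10l (F = 3.15) were both called, and Rps27l (F = 3.09) was while Rps27 (F = 1.75; adjusted p = 0.17) was not. In all 25 of the 29 were called with own-place probesets too, 4 were not and 2 further genes were.

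**Figure D3:**
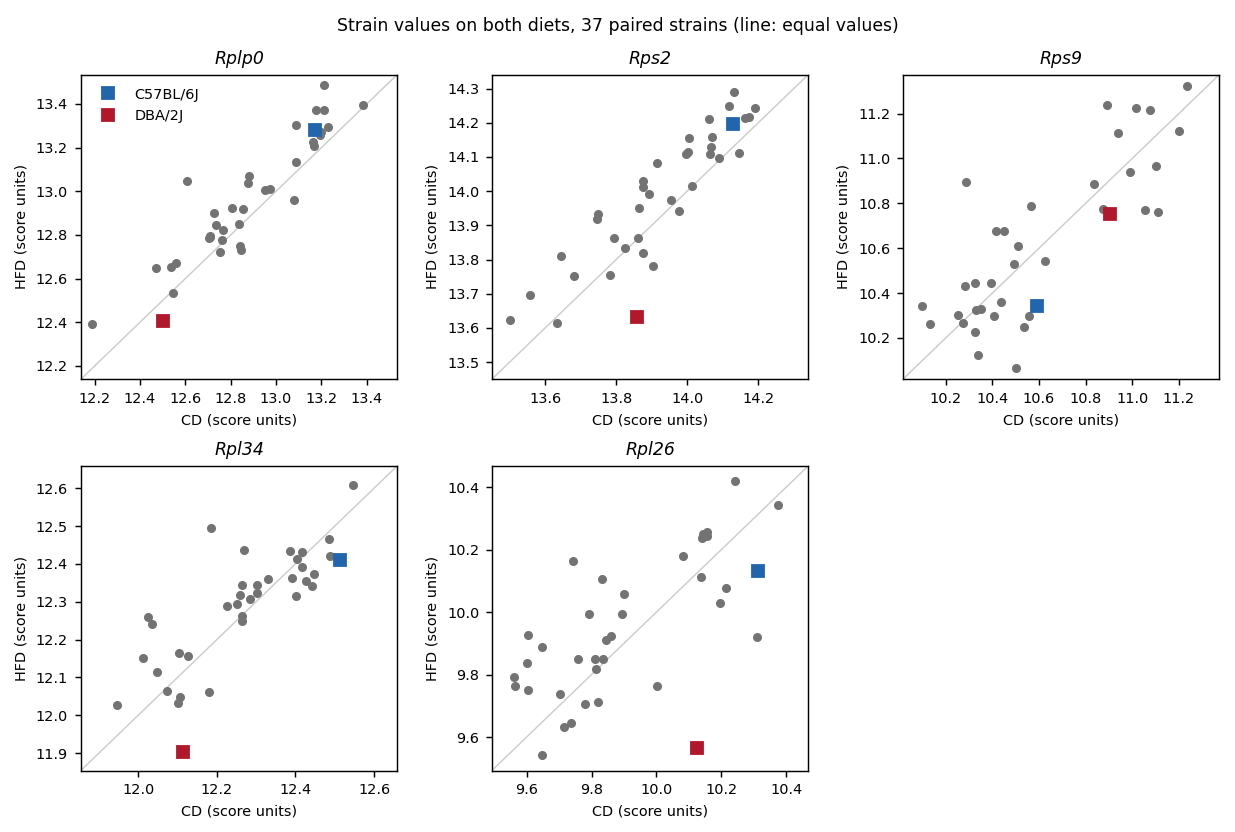
HFD score against CD score (score units) of the 37 paired strains for 5 of the genes with the largest strain F, with C57BL/6J in blue and DBA/2J in red. Points near the line have equal values on both diets, and Rps9 is drawn from its brightest probeset, outside the gene's place.

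The parents themselves were compared in the same fit, with the spread borrowed from all paired strains and each parent assumed to vary like them. Of the members 5 were called, 4 of which are given here. Rplp0 was higher in C57BL/6J by 0.773 (limma, adjusted p = 1.5e-08), Rpl34 by 0.452 (adjusted p = 3.8e-04), Rps2 by 0.417 (adjusted p = 3.7e-04) and Rps27l, the paralog of Rps27 induced by p53, by 0.383 (adjusted p = 0.037). Of all probesets 1.26% were called, 0.697% higher and 0.56% lower in C57BL/6J, against 6.25% of the members. For the strain term of this fit the share was 13.6% over all probesets and 35.8% among the bright probesets compared above. The share among bright probesets was not set beside the parent count. The members' larger share is therefore not read as particular to ribosomal protein genes. Each of the 5 was also called, in the same direction, with its own-place probeset. Without BXD63 the parent count was again 5. With the 4 parental arrays alone limma called 0 members, and 7 had an unadjusted p below 0.05, which is 8.75% of the members beside 8.46% of all probesets.

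The third question was whether the members vary together. After removal of diet and batch means, each gene was correlated over the 79 arrays with the mean of the other members. The median r was 0.448, 77 of 80 were above 0 and 34 reached 0.5. For the 22255 other symbols, set against the mean of all members, the median was -0.035, and 0.225% reached 0.5. Other symbols in the brightest 10% had a median of 0.014. These are descriptions, and arrays of a strain are not independent. The mean of the members itself varied little, from 11.62 to 11.89 on CD (SD 0.057) and from 11.70 to 11.91 on HFD (SD 0.053). The HFD array had the higher mean in 21 of 37 strains, and its r between diets, 0.368, fell to 0.028 without the 2 outermost strains.

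**Figure D4:**
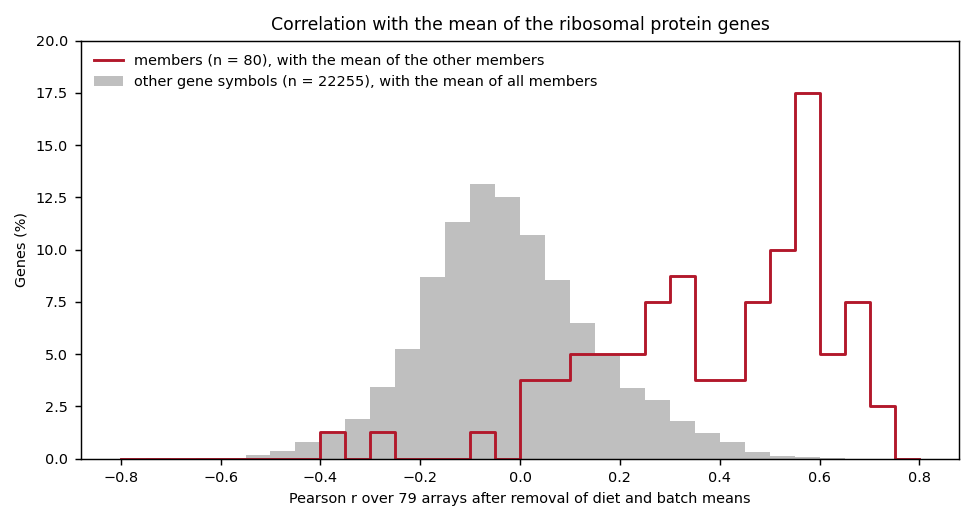
Share of genes (vertical axis, %) by Pearson r over 79 arrays (horizontal axis) with the mean of the ribosomal protein genes. The red outline gives the 80 members, each set against the mean of the others, and the grey bars the 22255 other symbols; the members centre near 0.45 and the others near 0.

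Rpl24 (r = 0.712), Rpl5 (0.679), Rps25 (0.667) and Rps12 (0.661) were among the 5 genes that followed the family most closely. Rpl5 binds the 5S ribosomal RNA, and these genes encode proteins of both subunits. The median r was 0.452 in the small subunit and 0.381 in the large. Rpl18 ran against the rest (r = -0.394, rho = -0.312). Rpl28 had r = -0.262 but rho = -0.118, with r = -0.164 on CD and -0.400 on HFD, and Rps19, with r = -0.089 and rho = -0.041, lay near 0. Rpl18 correlated with Rps19 at 0.552 and with Rpl28 at 0.438, and with Rps12 at -0.524. Single pairs were weakly tied, with a median r of 0.159 over 3160 pairs, 2420 of them above 0. The highest was Rpl35a with Rpl6 (0.768), then Rpl23 with Rpl36a (0.757), and the lowest Rpl18 with Rpl9 (-0.629). The first principal component held 23.7% of the variance and the second 10.7%. The paralogs Rpl3 and Rpl3l correlated at 0.149, and the stalk proteins Rplp1 and Rplp2 at 0.187.

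**Figure D5:**
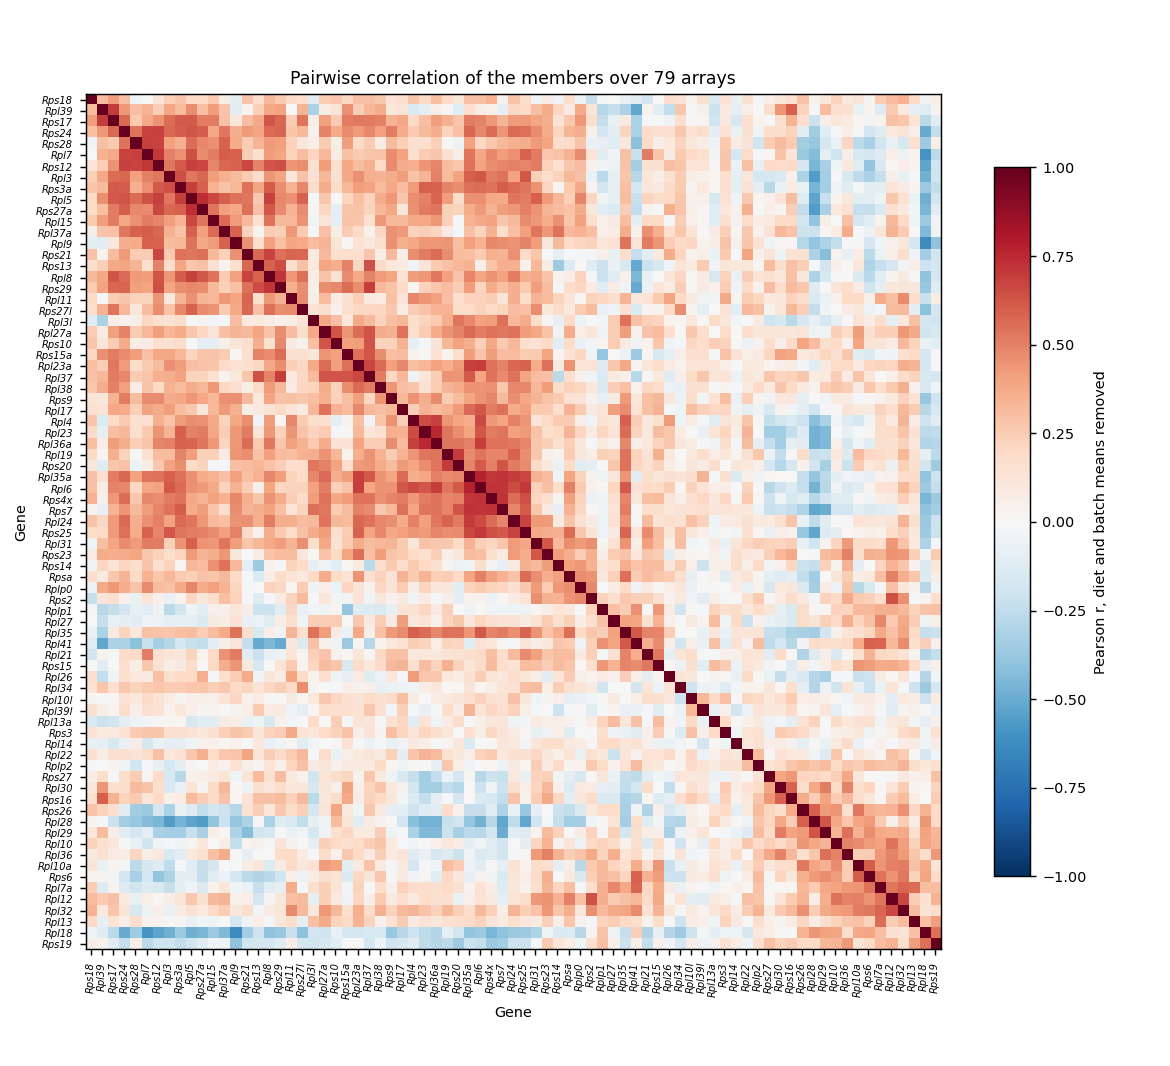
Pairwise Pearson r (colour) of 77 of the 80 genes over 79 arrays after removal of diet and batch means, with genes on both axes ordered by average-linkage clustering. A broad red block holds most genes, Rps25, Rpl24 and Rps12 among them, and Rpl18 and Rpl28 form blue stripes against it.

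The covariation was there on each diet (median r 0.478 on CD and 0.399 on HFD), in each batch (0.480 and 0.400), with own-place probesets (0.458) and without BXD63 (0.454, with 75 of 80 above 0 and 35 at 0.5 or more). The mean of the members correlated at -0.174 with the array median, at -0.114 with the mean of 1154 olfactory receptor probesets, which stand for background signal, and at -0.018 with the other bright probesets. Against cell markers the largest r were -0.329 with red blood cell, -0.204 with endothelial and 0.151 with macrophage markers. Among the translation lists it correlated at 0.517 with the other ribosomal proteins, 0.437 with initiation factors and 0.256 with assembly genes, and at 0.033 with elongation genes and -0.255 with the mTOR pathway. The part of blood and vessels in it was not tested.

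Of all other symbols Gnb2l1, which encodes RACK1, a protein of the small subunit with a symbol outside the rule, was most like the family mean (r = 0.635, rho = 0.590, 79 arrays). Then came Ino80, a chromatin remodeller (0.630), Nsa2, a ribosome assembly factor (0.613), Mrpl54 of the mitochondrial ribosome (0.609) and Luc7l3, a splicing factor (0.594). Least like it were Hspb6, a small heat shock protein of muscle (-0.705), Ctsa, a lysosomal protease (-0.623), and Jup, a junction protein (-0.616).

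The promoter features shown at the start were set beside the covariation as a description. The 28 genes with a pyrimidine run had a median r of 0.414 with the other members, and the 32 without it 0.426. Rpl18 and Rpl28, with the lowest r, have the run in the windows printed above, as do Rps25 and Rps12, which followed the family. Rpl24, which followed it too, has none there. The windows of Rpl5, also among those that followed it, and of Rps19, with the next lowest r, were not printed and hold none either. The 25 genes with CCGGAAG had a median r of 0.489 and the 35 without it 0.337, with ranges that overlap (0.039 to 0.667 and -0.394 to 0.712). The 36 genes with GGGCGG had a median r of 0.349 and the 24 without it 0.452 (-0.394 to 0.657 and -0.262 to 0.712). Of the genes with a run 7 of 28 were called between diets and 11 for strain, and of those without it 9 and 13 of 32. With CCGGAAG 7 of 25 were called between diets and 13 for strain, and without it 9 and 11 of 35. With GGGCGG these numbers were 7 and 16 of 36, and without it 9 and 8 of 24. Of all probesets 38.1% were called between diets and 13.6% for strain, and of the bright probesets compared above 24.7% and 35.8%. Differences in these counts between genes with and without a motif were not tested.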

How the data were processed

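RNA from quadriceps was hybridised to Affymetrix Mouse Gene 1.0 ST arrays. The authors processed the arrays with Affymetrix Expression Console, per the labels, and deposited 1 score per probeset and array; the log base, background method and any batch correction are not given in the sources used here. Scores of any array average 8.0 with an SD of 2.0. Arrays had medians between 7.783 and 7.922, and correlations with the others of 0.961 to 0.992. Precision is set by the number of arrays, since an array has no read depth. The design had assumed log2 values, and its linear models were kept for the scores.

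Diet was fitted with limma 3.58.1 (lmFit, eBayes) with diet and batch as terms over 79 arrays, strain with a coefficient per strain over 74, and the parents as a contrast of the latter. P-values were adjusted over all 35556 probesets (Benjamini-Hochberg) and called below 0.05. On simulated data with 200 probesets changed by diet and 200 by strain, the diet fit recovered 146 and the strain fit 191. Of the 35356 probesets left unchanged for each test, 16 and 10 were called. The simulated diet shift was the SD of the probeset, and the strain effects were larger. The members had a median absolute diet difference of 0.036 and a median SD of 0.13, so these rates do not hold for them. Noise was independent between arrays, and the parent contrast was not simulated. Correlations between diets used values with batch means removed and 100000 permutations. The labels name the strain, which pairs the arrays: deviations from the diet means correlated between both arrays of a strain with a median of 0.214 (from -0.136 to 0.395, over 0.1 in 33 of 37 strains), and between different strains with a median of -0.0062. Genes were named by rank within each comparison, plus the stalk proteins, paralog pairs and fixed lists of translation genes and cell markers; the members, lists and this rule were chosen with earlier results of these data known. A probeset was in its gene's own place where at least 6 of the 10 nearest numbered anchors lay within 50 anchors of the gene in the RefSeq order (GRCm38.p6), which was used for order and names alone since the deposited table names no build. The chow column for BXD92 was taken as the sample BXD92a, its only match. Of the 80 members, 3 enter the counts but are not reported here by name. Alternatives were the batch term, each batch, the strain block, other strains, tests, scalings and probesets. Own-place probesets, an olfactory receptor covariate and the parent fit without BXD63 were chosen after seeing the data. Software was Python 3.11.15 (scikit-learn 1.9.0, scipy 1.17.1, pandas 2.3.3, numpy 2.4.6, matplotlib 3.10.9) and R 4.3.3.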

Additional observations from a re-analysis of the deposited data

How the results depend on the processing

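The number of members higher in HFD was 2 in batch 1 alone, 14 with array medians aligned and 16 with strain as a replicate block, against 9 as reported. The number lower was 0 in batch 1 alone (limma; 2 at an unadjusted p below 0.05), 4 in batch 2 alone, 4 with array medians aligned, 4 with the mean of all probesets of a gene and 6 with own-place probesets, against 10. Of all probesets 5.82% were higher and 6.81% lower in batch 1, 12.2% each in batch 2, 23.1% and 16.2% with medians aligned, 20.7% higher with the block and 19.4% lower with the mean of all probesets, against 18.9% higher and 19.3% lower as reported. Single batches hold fewer arrays, and for the others the cause was not tested. Apart from the counts of higher calls, pairing by block moved no count by over 1.5 times. With the 4 parental arrays alone 0 members were called (limma). The strain count stayed between 26 and 42 and the median r with the other members between 0.397 and 0.502. The share of all probesets was not set beside the strain count under these settings. Its changes are therefore not read as results about the members.

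Diet differences changed sign for some named genes. Of these Rpl31 and Rps27a had been called, and Rpl34 was called after the change, with its own-place probeset. With own-place probesets the values were -0.183 for Rpl34, -0.069 for Rps2, -0.047 for Rps4x and -0.0079 for Rpl31. With the mean of all probesets they were 0.0011 for Rpl18, -0.012 for Rpl26, 0.0085 for Rpl3, -0.025 for Rpl34, 0.051 for Rps27a, -0.022 for Rps4x and -0.016 for Rpsa. With quantile normalization they were -0.0024 for Rpl5, -0.0083 for Rplp1, -1.28e-05 for Rps4x and -0.0090 for Rpsa. With the olfactory receptor covariate they were 0.0032 for Rpl18, -0.016 for Rpl5 and -0.030 for Rps4x. In batch 1 alone they were -0.0015 for Rpl34 and -0.010 for Rpl5. For Rps9 the value was 0.0077 with the strain block and 0.0082 over paired strains with no block. Over the named genes, 451 diet values kept their direction and side of the threshold, 28 lost the call and 8 gained it; for strain these numbers were 341, 10 and 22.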
